A study of Mus musculus with 6 samples.

Results

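The probes described here are those of a mouse lncRNA microarray whose names begin with MM9LINCRNAEXON and that gave a signal well above background on at least 3 of 6 liver arrays. Of 83 probes with that name, 31 met this rule, out of 32336 of 60915 probes that met it on the whole array. The 31 probes were chosen by a measured value, the flag for signal above background, so how often they were detected describes the choice and supports nothing further. The flag did not use the difference between stages, except that a probe seen on the 3 arrays of one stage alone had to differ. That held for 3 of the 31.

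A lincRNA is a long RNA transcribed from DNA between protein-coding genes and not translated into protein. Many are spliced, are made at low levels and are restricted to few cell types or stages, and some act on transcription of other genes, while for many no function is known. The fetal liver is a site of blood formation as well as an organ of immature hepatocytes, and the adult liver has taken over metabolism, bile production and detoxification.

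Livers of male C57/BL6 mice were compared at embryonic day 18 and at 2 months, without any treatment, with 3 arrays per stage. The question set by the study was which lncRNAs differ between fetal and adult liver. The replicates were called independent experiments, and pooling of fetal livers is not stated in the sources used here. The p-values rest on the variation between these samples, and limma also draws each probe's variance toward that of all tested probes. Whole liver was used, so fewer cells of a type and less RNA per cell cannot be told apart.

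The name of each probe holds a number and a sign, + or -, and ends in _P1. The short form 11712- stands here for MM9LINCRNAEXON11712-_P1, and likewise for the others. The files pair these probes with no gene, position or sequence, and they do not spell out what the number and the sign stand for, although the sign may give the strand. Each probe had 1 spot on an array. A level is the log2 of the scanner's processed signal minus the 75th percentile of that array, so 0 is the level of a probe brighter than 75% of spots. Where 3 levels of a stage are given, they stand in the order of arrays 1, 2 and 3. Levels are compared between arrays for 1 probe, and not between probes, which bind their targets differently.

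The arrays differed in brightness, with a 75th percentile of 69.9 (adult array 2) to 153.5 (fetal array 2), and the number of arrays limits the precision. Fetal array 1 stood apart, with a correlation of 0.893 and 0.915 across 32250 probes with the other fetal arrays, which correlated with each other at 0.983. The adult arrays correlated at 0.967 to 0.983 with each other. Scan 1 held fetal arrays 2 and 3 with adult arrays 1 and 2, and scan 2 held fetal array 1 with adult array 3. Of 24 marker genes listed for blood, hepatocyte and other cells, the files name a probe for 1, Tfrc, the transferrin receptor of iron uptake and a marker of developing red cells. Its level was 8.22, 8.20 and 7.95 in fetal liver and 4.74, 4.50 and 4.27 in adult liver. Its part in the results below was not tested, and hepatocyte markers were not analysed here.

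The share of MM9LINCRNAEXON probes above background overlapped between the stages. Of all 83 probes, 30, 36 and 31 were detected on fetal arrays 1 to 3, which is 36.1%, 43.4% and 37.3%. On adult arrays 1 to 3, 30, 24 and 28 were detected, which is 36.1%, 28.9% and 33.7%. Fetal array 1 and adult array 1 thus detected the same number, and fetal array 2 the most. The share was 39.0% ± 3.87 in fetal and 32.9% ± 3.68 in adult liver (SD, n = 3 each). The difference of 6.02 percentage points had an exact permutation p of 0.2 (two-sided over samples, where the smallest p that 3 arrays against 3 can give is 0.1). Its size depended on the measure of detection. With the scanner's flag for positive and significant signal, the mean shares were 65.5% in fetal and 56.2% in adult liver. With a level of at least -4 on every array they were 51.8% and 47.8%.

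The same arrays were high and low over the whole chip, where fetal array 2 detected 60.6% of 60915 probes and adult array 2 detected 45.0%. The part of array brightness in the shares was not tested. The mean share over the whole chip was 4.60 percentage points higher in fetal liver. All 3 fetal arrays detected 25 of the 83 probes and all 3 adult arrays 22, against 43.8% and 42.7% of all probes. At least 1 fetal array detected 40 and at least 1 adult array 32, against 38545 and 33705 of all 60915 probes. On no array were 40 of the 83 probes (48.2%) detected. For probes named mouselincRNA and humanlincRNA, the shares detected on no array were 64.1% of 649 and 62.8% of 1104, and for all probes 33.4%. The difference between these classes was not tested.

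Of the 31 probes, 7 were called as different between the stages, 2 higher and 5 lower in fetal liver, among them the 3 that the detection rule required to differ. To be called, a probe needed a change of at least 2-fold with a limma adjusted p under 0.05 (Benjamini-Hochberg over all 32336 probes tested). By that rule 26.1% of all tested probes were called, 11.2% higher and 14.9% lower in fetal liver, so 7 of 31 (22.6%) lies near the background. The median log2 fold change, fetal minus adult, was -0.02 over the 31 probes and -0.07 over all tested probes. The median size of change was 0.83 and 0.73.

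Fetal and adult arrays did not overlap for 12 of the 31 probes (38.7%), against 47.6% of all tested probes. An unadjusted limma p under 0.05 was reached by 11 of the 31, against 40.5% of all tested probes. Both counts include the 3 probes that the detection rule required to differ. Of all 32336 tested probes, it required 1335 to differ through the fetal arrays alone and 504 through the adult arrays alone. Beside the 7 called probes, another 6 of the 31 had a mean difference of at least 2-fold without passing the test. All 6 arrays measured 3 of the 7 above background. In all 7 the stages did not overlap, so the sign had to be the same in scan 1 and scan 2, which adds no support. Without fetal array 1, 10 probes were called (31.0% of all tested), of which 8 were lower and 6 were among the 7. On scan 1 alone 13 were called, 4 higher and 9 lower (27.1% of all tested). With the scan as a block 9 were called, 3 higher and 6 lower (31.3% of all tested).

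The probe 11712- fell most from adult to fetal liver. Its levels were 5.48, 5.83 and 5.81 in adult liver and -0.05, 1.07 and 1.40 in fetal liver. The adult arrays lay within 0.35 of each other and every fetal array lay far below them. Fetal liver was 29.8-fold lower, with a log2 fold change of -4.90 (SE 0.41, limma adjusted p = 3.9e-04, 95% interval -5.88 to -3.91). The signal was above background on all 6 arrays, so both sides were measured. The difference was -4.42 on scan 1 and -5.86 on scan 2, where fetal array 1, the lowest of the fetal arrays, was scanned.

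The probes 10612+ and 11274+ were detected on all 3 adult arrays and on no fetal array. Levels of 10612+ were -2.002, -1.01 and -2.02 in adult liver and -4.79, -5.91 and -5.04 in fetal liver. All 3 fetal values are the floor to which the scanner software raises low signals, so the fitted log2 fold change of -3.57 has no measured fetal side. Against the lowest signal that counted as above background on each fetal array, 10612+ was at least 2.36-fold lower in fetal liver. The limma adjusted p of 0.0015 that made the call belongs to the fitted value and not to this bound, and the detection rule admitted the probe through its adult arrays alone. This bound takes the mean over the bright stage against, per array of the dim stage, the higher of that lowest signal and the probe's own.

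Levels of 11274+ were -1.72, -1.12 and -2.08 in adult liver and -4.18, -3.75 and -4.25 in fetal liver. The stages were apart, again with the fetal values below background. It was at least 2.43-fold lower in fetal liver. Here too the limma adjusted p, 0.0027, belongs to the fitted log2 fold change of -2.42, and the adult arrays alone admitted the probe. Both probes lie close to background even in adult liver. With normexp background correction, which adds 50 to each signal, their log2 fold changes were -0.69 and -0.52 and neither was called (limma adjusted p = 0.096 and 0.11).

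The probe 10664+ had levels of 4.99, 5.08 and 5.19 in adult liver and 3.79, 3.34 and 3.65 in fetal liver. Replicates were tight in both stages, with an SD of 0.10 in adult and 0.23 in fetal liver. It was 2.81-fold lower in fetal liver, a log2 fold change of -1.49 (SE 0.24, limma adjusted p = 0.0055, 95% interval -2.07 to -0.91). It was above background on all arrays, and the 2 scans gave -1.54 and -1.40.

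The probe 11806+ had the highest adjusted p of the 7 called. Its levels were 1.46, 1.26 and 1.07 in adult liver and -0.17, 0.43 and 0.11 in fetal liver. The stages did not overlap, and fetal liver was 2.20-fold lower, a log2 fold change of -1.14 (SE 0.27, limma adjusted p = 0.022). Of the 6 fits with 1 array left out, only that without fetal array 2 kept the call. Without adult arrays 1, 2 or 3 or fetal array 3 the limma adjusted p was 0.081, 0.079, 0.057 and 0.074, and without fetal array 1 the log2 fold change was -0.99. With normexp correction it was -0.75, under the 2-fold threshold.

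The probe 11382+ was detected on all 3 fetal arrays and on no adult array. Its levels were 1.62, 1.22 and 1.56 in fetal liver and -5.01, -3.14 and -4.48 in adult liver. The fetal arrays were close to each other, and the adult values lay below background, with adult array 1 at the floor. Fetal liver was higher by at least 15.7-fold. The fitted log2 fold change of 5.68 (limma adjusted p = 4.4e-04) is not a measured size, because the adult side has only a bound, and the fetal arrays alone admitted the probe. With normexp correction the log2 fold change was 2.23 (limma adjusted p = 8.2e-04).

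The probe 11506+ was also higher in fetal liver. Its levels were 0.61, 0.61 and 0.83 in fetal liver and -1.87, -2.45 and -3.00 in adult liver. Fetal values lay within 0.23 of each other, and of the adult arrays only array 1 was above background. The log2 fold change was 3.13 (SE 0.34, limma adjusted p = 0.0010, 95% interval 2.32 to 3.93), or 8.73-fold, with the adult side measured on 1 array. With normexp correction it was 1.40 (limma adjusted p = 0.0012). Both 11382+ and 11506+ stayed called in each of the 6 fits with 1 array left out, although the detection rule required 11382+ to differ.

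The other 6 probes with a mean difference of at least 2-fold did not pass the test, and several gave a different value without fetal array 1. The probe 11125+ had levels of 9.21, 6.65 and 7.06 in fetal liver and 4.59, 5.47 and 6.43 in adult liver. Every fetal array was above every adult array, but fetal array 2 exceeded adult array 3 only narrowly. The log2 fold change was 2.14 (limma adjusted p = 0.083, 95% interval 0.31 to 3.98). Without fetal array 1 it was 1.36 (limma adjusted p = 0.093). With the scan as a block the call was made (limma adjusted p = 0.0069).

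The probe 10569- had levels of 7.57, 4.88 and 4.71 in fetal liver and 7.02, 6.79 and 6.37 in adult liver. Fetal array 1 was above all adult arrays and the other fetal arrays below them. The log2 fold change was -1.01 (limma adjusted p = 0.37, 95% interval -2.82 to 0.81) with all arrays and -1.93 without fetal array 1 (limma adjusted p = 0.0029). On scan 2, which holds fetal array 1 and adult array 3, the difference was 1.19, in the opposite direction to the -2.11 of scan 1.

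The probe 11641+ had levels of 2.41, -0.43 and -0.60 in fetal liver and -1.03, -0.31 and -0.62 in adult liver. Fetal arrays 2 and 3 fell inside the adult range and fetal array 1 alone lay above it. Its log2 fold change was 1.11 (limma adjusted p = 0.34, 95% interval -0.80 to 3.03) and 0.14 without fetal array 1.

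The probes 11010+ and 11731- were near the threshold. Levels of 11010+ were -1.39, -2.19 and -2.22 in fetal liver and -1.24, -0.92 and -0.27 in adult liver. Its log2 fold change was -1.12 (limma adjusted p = 0.066, 95% interval -2.02 to -0.23). All fetal arrays lay below all adult arrays, fetal array 1 only narrowly, and without it the log2 fold change was -1.39 (limma adjusted p = 0.020). With the scan as a block 11010+ was called (limma adjusted p = 0.011).

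Levels of 11731- were 1.24, 0.65 and 0.20 in fetal liver and 2.19, 1.67 and 1.54 in adult liver. All fetal arrays lay below all adult arrays, with a log2 fold change of -1.10 (limma adjusted p = 0.060, 95% interval -1.95 to -0.26). Without fetal array 1 it was -1.37 (limma adjusted p = 0.014). On scan 1 the difference was -1.50 and on scan 2 -0.30.

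The probe 10136+ had levels of -3.47, -2.62 and -1.44 in fetal liver and -5.01, -4.44 and -2.54 in adult liver. It was detected on 2 fetal arrays and 1 adult array, with adult array 1 at the floor. The stages overlapped, and the log2 fold change was 1.48 (limma adjusted p = 0.20, 95% interval -0.35 to 3.32). The 2 scans disagreed in sign, at 2.69 and -0.93.

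The probe 10294- differed by just under 2-fold with tight replicates. Its levels were -1.06, -1.36 and -1.11 in fetal liver and -0.16, -0.12 and -0.36 in adult liver. The stages did not overlap, the log2 fold change was -0.96 (95% interval -1.53 to -0.40) and the limma adjusted p was 0.025, so that the fold threshold alone kept it from a call. The fifth uncalled probe without overlap, 10627+, had levels of -1.76, -2.02 and -0.91 in fetal liver and -3.20, -2.06 and -2.11 in adult liver. Its log2 fold change was 0.89 (limma adjusted p = 0.18, 95% interval -0.17 to 1.95).

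Probes with the same number and opposite signs allowed a comparison within a number. Of the 83 probes, 50 carry + and 33 carry -, and 12 numbers carry both. Both probes were among the 31 for 3 numbers (10664, 11711 and 11712), 1 probe was for 4 numbers, and neither was for 5. Members that share a number may share a locus and are not replicates.

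For 10664 the fold changes of the 2 probes had opposite signs. Beside the decrease of 10664+, the levels of 10664- were 5.28, 4.09 and 5.05 in fetal liver and 2.98, 4.69 and 4.27 in adult liver. The stages overlapped for 10664-, whose log2 fold change was 0.83 (limma adjusted p = 0.29, 95% interval -0.45 to 2.10). The difference between the probes, 10664+ minus 10664-, was 2.01, 0.38 and 0.92 in adult liver and -1.49, -0.75 and -1.40 in fetal liver. This difference was lower on every fetal array than on every adult array, while its own sign has no meaning between probes. The fold changes of the 2 probes thus differed by -2.32 on the log2 scale, with an exact permutation p of 0.1 (two-sided over samples, the smallest that 3 against 3 can give, and 0.15 after Benjamini-Hochberg adjustment over 3 numbers).

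For 11712 the test called the - probe and not the + probe. Levels of 11712+ were -1.25, -1.32 and -1.04 in fetal liver and -1.42, -0.90 and -1.41 in adult liver. The stages overlapped and the log2 fold change was 0.04 (95% interval -0.59 to 0.67), beside the -4.90 of 11712-. The fold changes of the 2 probes differed by 4.94 on the log2 scale, again at the smallest exact permutation p of 0.1 (0.15 after adjustment over 3 numbers).

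For the neighbouring number 11711 neither sign was called. Levels of 11711+ were 0.42, -0.03 and 0.01 in fetal liver and -0.66, 0.34 and 0.29 in adult liver, giving a log2 fold change of 0.15 (95% interval -0.69 to 0.98). Levels of 11711- were -3.19, -1.72 and -1.84 in fetal liver and -2.63, -2.26 and -2.83 in adult liver, giving a log2 fold change of 0.33 (95% interval -0.73 to 1.39). Both probes overlapped between the stages, and the fold changes differed by -0.18 (exact permutation p = 0.8, and 0.8 after adjustment over 3 numbers).

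In the 4 numbers with 1 probe among the 31, the other probe was near or below background. The partner of 11382+, 11382-, was detected on no array, as were the partners of 10294- and 11569-. The partner of 11641+, 11641-, was detected on adult arrays 1 and 3 alone, at levels of -2.23 and -1.59. Over the 31 probes, 6 of 20 probes with + and 1 of 11 with - were called, with median log2 fold changes of 0.09 and -0.32. The 3 probes that the detection rule required to differ all carry + and are among those 6, so the 2 counts cannot be compared directly. Over all tested probes 26.1% were called and the median was -0.07, and the difference between the signs was not tested.

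A further 8 probes were above background on all 6 arrays, overlapped between stages and did not pass the test. The probe 10490+ lay closest to 0, with levels of 1.61, 1.30 and 1.07 in fetal liver and 1.85, 0.89 and 1.29 in adult liver. Its fetal range lay inside its adult range, and its log2 fold change was -0.02 (95% interval -0.80 to 0.77). The narrowest interval of the 8 belonged to 10667+, with levels of -2.25, -2.71 and -2.59 in fetal liver and -2.35, -1.84 and -2.20 in adult liver. Fetal array 1 lay among the adult arrays and the other fetal arrays below them, and the log2 fold change was -0.39 (95% interval -1.03 to 0.25).

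Of the 8, 11496+ had the lowest fold change, with levels of -1.77, -2.37 and -1.56 in fetal liver and -1.22, -1.70 and -0.70 in adult liver. Adult array 2 fell inside the fetal range, and the log2 fold change was -0.70 (95% interval -1.57 to 0.18). Levels of 11939- were 3.69, 2.98 and 2.61 in fetal liver and 3.52, 3.28 and 4.19 in adult liver. Fetal array 1 again fell inside the adult range, and the log2 fold change was -0.57 (95% interval -1.50 to 0.36). Levels of 11569- were -1.04, 0.01 and 0.15 in fetal liver and -0.07, -0.14 and -0.30 in adult liver. Here fetal array 1 lay below every adult array and the other fetal arrays above them, for a log2 fold change of -0.13 (95% interval -1.001 to 0.75).

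The other 3 had positive fold changes. Levels of 10171+ were -0.73, -1.27 and -0.93 in fetal liver and -1.64, -0.90 and -1.46 in adult liver, a log2 fold change of 0.36 (95% interval -0.36 to 1.08). Levels of 10105- were 2.90, 2.02 and 2.84 in fetal liver and 1.79, 2.27 and 2.64 in adult liver, a log2 fold change of 0.35 (95% interval -0.51 to 1.22). For both, fetal array 2 was the lowest fetal array and lay inside the adult range. Levels of 10343+ were 0.23, -0.15 and 1.04 in fetal liver and -0.40, 0.67 and -0.15 in adult liver, a log2 fold change of 0.33 (95% interval -0.69 to 1.36).

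Other probes were detected on 4 or 5 arrays. For 11298-, 10565+ and 11658- the log2 fold changes were -0.32, 0.70 and 0.16, and each overlapped between stages. The probe 10541+ had levels of -4.79, -1.38 and -1.17 in fetal liver and -1.82, -1.34 and -3.11 in adult liver. Fetal array 1 and adult array 3, which share scan 2, were the low arrays of their stages, fetal array 1 being at the floor. Its log2 fold change was -0.36 (95% interval -2.79 to 2.08), and 0.81 without fetal array 1.

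Fetal array 1 was the array farthest from the other fetal arrays for 16 of the 31 probes (51.6%), against 62.8% of all tested probes. The SD over arrays exceeded 1 for 5 of the 31 probes in fetal liver and for 1 in adult liver, and the median SD was 0.49 and 0.47. Over all tested probes the median SD was 0.49 in fetal and 0.32 in adult liver.

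At the detection threshold, 5 probes were above background on exactly 3 arrays and are among the 31. They were 10612+, 11274+, 11382+, 10136+ and 11711-, with mean levels over 6 arrays of -3.46 to -1.37. Just outside, 5 probes were above background on exactly 2 arrays, with mean levels of -3.83 to -2.96. Of these, 11564+, 11752+ and 12036- were detected on fetal arrays 2 and 3 only, 11641- on adult arrays 1 and 3 only, and 11867+ on adult array 1 and fetal array 2.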

How the data were processed

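Liver RNA without ribosomal RNA was copied by random priming into Cy3 cRNA for a one-colour Arraystar array, per the labels' protocols. Signals were extracted by Agilent Feature Extraction 11.0.1.1, per the submitters' processing notes, and the grid names build mm9, per the file headers. The deposited processed signal is a linear intensity, background-subtracted, with low signals raised to a floor (6 of 186 values here). Deposited flags (0 or 1) mark signal above background and outlier spots, per the file headers. A further table deposited by the authors holds log2 values of 17307 probes. It matched quantile-normalized scanner signals (r at least 0.999), so its scale and direction are known, with medians of 5.94 to 6.11, and it was an alternative.

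Control, negative-control and outlier spots were left out. The log2 signal minus each array's 75th percentile was compared with limma 3.58.1 in R 4.3.3 (two-sided) on all probes above background on at least 3 arrays, and the code was tested on simulated data. Alternatives were other scaling, background correction, filters, scan or replicate block, array weights (gene by gene, since the default did not converge), the design text's filter and leaving out arrays. Normexp used the median signal. The members and lists were chosen with earlier results of these data known. Probes described in full were those called, those detected in 1 stage only, those on all 6 arrays, those sharing a number and the largest uncalled changes. The analyses by sign pair were added after the data were seen.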

Additional observations from a re-analysis of the deposited data

Results flagged for a closer look

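Of the 83 probes, 52 were not among the 31. Of those 52, 10 were above background on at least 1 fetal array and on no adult array. The reverse held for 11641-, detected on adult arrays 1 and 3 only. Among the 10, 11600- was brighter on an adult array (-2.86) than on its brightest fetal array, fetal array 2 (-3.41). The lowest level that counted as above background was -3.58 on fetal array 2 and -2.69 to -2.18 on the adult arrays. Over all 60915 probes, at least 1 fetal array detected 38545 and at least 1 adult array 33705. These counts include probes seen in both stages, so they give no share to set beside the 10. On all 3 fetal arrays and on no adult array, 1335 of the 60915 probes were detected, and 1 of the 83. In 4 of the 10, the brightest fetal array was at least 4-fold above the brightest adult array, and each time it was fetal array 1, the only array on which the probe was detected. The level there was 0.18 for 11561-, -0.063 for 11727+, -2.10 for 11109+ and -2.43 for 11734+. These lay above the brightest adult array by 3.47, 4.10, 2.40 and 2.07 on the log2 scale. The comparisons between stages did not include these probes, and a signal on 1 array has no replicate.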

How the results depend on the processing

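The count of 7 called probes, 2 higher and 5 lower, was the same with quantile normalization, with the percentile over probes above background on all 6 arrays, and in the authors' deposited log2 table. In that order, 25.8%, 25.7% and 24.6% of all tested probes were called, the last over 17307 probes. The count was 4 with normexp correction (2 lower), where 14.1% of all tested probes were called. Among the 20 probes above background on all 6 arrays the count was 3 (0 higher, 3 lower), against 22.9% of all probes called under that filter. The median log2 fold change of the 20 was -0.26. An unadjusted limma p under 0.05 was reached by 7 of the 20, against 40.5% of all 32336 probes tested without that filter. With array weights it was 13 (5 higher, 8 lower; 34.5% of all tested), and on scan 1 alone also 13 (4 higher, 9 lower).

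Leaving out 1 array at a time gave 6 to 10 called, 2 higher each time and 4 to 8 lower, with 16.5% to 31.0% of all tested probes called, a median of -0.08 to 0.0038 and a difference in detected share of 3.82 to 7.63 percentage points. The replicate numbers gave no sign of pairing: deviations of same-numbered arrays from their stage mean correlated at -0.53, -0.35 and -0.31. The highest correlations were 0.65 (adult array 1 with fetal array 2) and 0.48 (adult array 3 with fetal array 1), each within a scan. Such deviations cancel out within a stage, so these values cannot settle whether samples were paired. With a replicate block 5 probes were called, 3 of them lower, and 13.9% of all tested. The calls not made were 10664+ (limma adjusted p = 0.052) and 11806+ (limma adjusted p = 0.11).

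The probes 11712-, 11382+ and 11506+ were called under every alternative in which they were tested. For 11382+ this adds no support, because the detection rule required it to differ. Fold changes of some uncalled probes changed sign. With normexp they were 0.0067 (10490+), -0.033 (11658-) and -0.037 (11712+). On scan 1 they were 0.30 (10541+), 0.18 (11569-), -0.042 (11658-) and -0.018 (11712+). On scan 2 they were -0.93 (10136+), 0.32 (10490+), 1.19 (10569-) and -0.36 (11711-). With array weights they were 0.76 (10541+), 0.27 (11569-), -0.11 (11658-) and -0.14 (11711+). With 1 array left out they ran from -0.24 to 0.24 (10490+), -0.18 to 0.32 (11711+), -0.048 to 0.21 (11712+), -0.99 to 0.81 (10541+), -0.086 to 0.40 (11658-), -0.68 to 0.019 (11298-), -0.35 to 0.25 (11569-) and -0.0017 to 0.65 (10343+). The cause was not tested. Signal near background limits 10612+, 11274+ and 10136+.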
